A study of Homo sapiens with 8 samples.

Results

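HEL cells that had received the telomerase inhibitor GRN163L together with the JAK2 inhibitor LY2784544 were compared with HEL cells that had received LY2784544 alone. The comparison used 4 of the 8 arrays of the series, the 2 titled as the combination and the 2 titled as LY2784544. It covered every probe set annotated to exactly 1 gene, which were 19181 of the 33297 on the array, standing for 17958 genes. HEL is a human erythroleukaemia line. Cells were harvested after 48 h with both agents, with 0.5 µM LY2784544, with 20 µM GRN163L, or with DMSO, the vehicle, in the control. The 4 groups had 2 arrays each, since every treatment was made once in a first and once in a second experiment. The labels do not restate the doses of the combination, so taking its difference from LY2784544 as the effect of adding GRN163L assumes that the doses equalled those given alone. They name no separate source of cells beyond the 2 experiments, and p-values therefore cover only the variation among these cultures, which may be partly technical. With 2 arrays per group, the number of arrays limits the precision of every value.

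JAK2 is the tyrosine kinase that transmits signals of the erythropoietin and thrombopoietin receptors, and HEL cells depend on an activated form of it. Its substrates, the STAT transcription factors, induce survival genes and the SOCS proteins, which feed back on the receptors, and the same receptors also feed the RAS and ERK kinase cascade. GRN163L, also known as imetelstat, is a lipid-linked oligonucleotide that binds TERC, the RNA template of telomerase, and blocks the enzyme. Without telomerase, telomeres shorten step by step as cells divide.

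The arrays were Affymetrix expression arrays, and all values are log2 RMA signals. Over the tested genes, the array median was 7.23 (experiment 1) and 7.36 (experiment 2) for the combination, against 7.33 and 7.41 for LY2784544. Of 9 genes listed as HEL markers, 6 had a probe set of 1 gene (ITGA2B, GATA1, TAL1, KLF1, EPOR and TFRC), and these lay between 7.99 and 11.85 on the 8 arrays, the lowest of their means being at percentile 79.1 of all genes. Markers of monocytes and lymphocytes were mostly dim, while some of other cells were not. Of 17 monocyte and neutrophil genes with a probe set, 11 passed the filter on low values, with a median level of 4.66 and 4.84 on the combination arrays, against 4.73 and 4.76 with LY2784544. Of 18 such lymphocyte genes 12 passed, with a median of 4.83 and 4.84, against 4.96 and 4.90. Of 13 stromal and epithelial genes 8 passed, with a median of 6.27 and 5.96, against 6.07 and 5.97, and PECAM1, which megakaryocytic cells also express, was at 11.34 and 11.26, against 10.77 and 10.71. KRT18, an epithelial keratin, was at 8.74 and 7.87, against 9.25 and 8.54. Of 13 mast cell and basophil genes with a probe set 9 passed, and these, described with the results, were brighter. Their median was 7.42 and 8.69, against 10.17 and 10.27, but the middle gene was not the same in both groups.

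Most transcripts hardly moved when GRN163L was added. Over the 19181 probe sets, the log2 change (combination minus LY2784544) had a median of 0.01 (SD 0.37) in the first experiment and of 0.00 (SD 0.33) in the second. The changes ran between -3.70 and 2.09 in experiment 1 and between -3.33 and 2.22 in experiment 2. For 91.1% of probe sets the mean of both experiments lay within 0.5 of 0. A fall of 2-fold or more in both experiments was seen for 86 probe sets (0.448%), and a rise of that size for 40 (0.209%). Probe sets are not independent replicates, but across them both experiments' changes correlated with r = 0.61, and r was 0.69 over the 12570 genes kept for testing. The arrays of an experiment share its cultures and handling. Of these 12570 genes, 6619 had a lower and 5864 a higher mean, while 38.7% were lower in both experiments and 33.1% higher in both. The plot of change by experiment shows that the tail of falling genes was longer than that of rising ones.

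**Figure D1:**
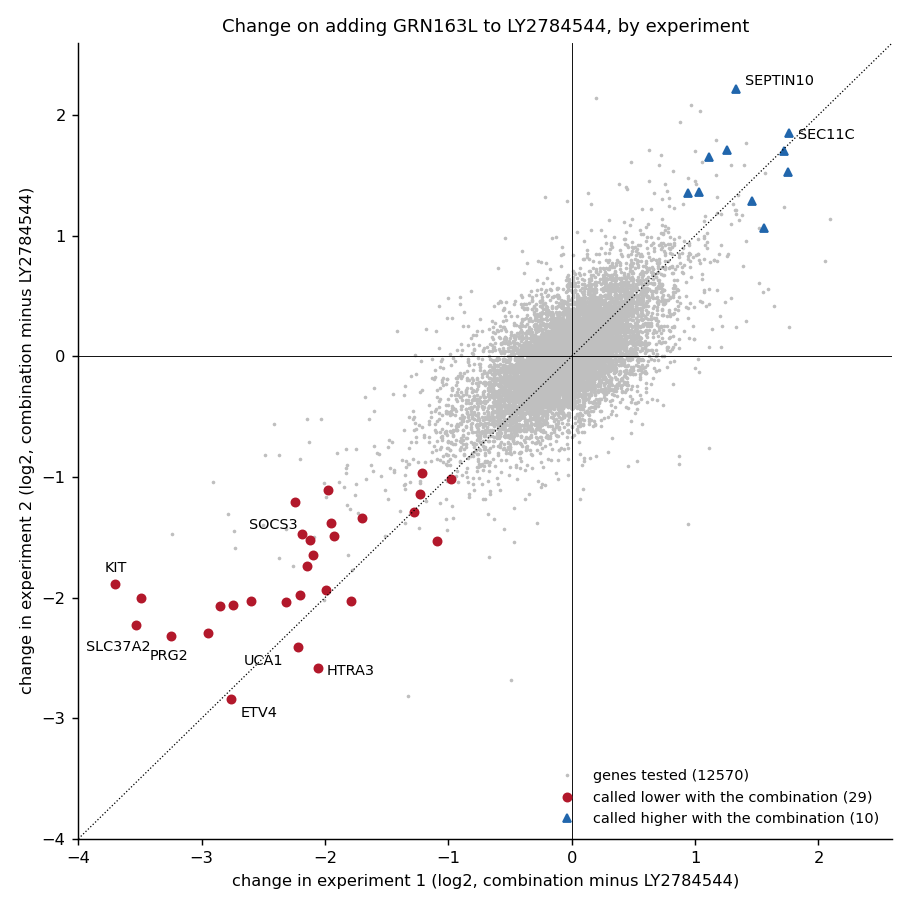
Log2 change (combination minus LY2784544) in experiment 1 (horizontal axis) and experiment 2 (vertical axis), 1 point per gene tested, with the 29 genes called lower in red and the 10 called higher in blue. The dotted line marks equal change, and KIT, PRG2 and SLC37A2 lie to its left, with larger falls in experiment 1 than in experiment 2.

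Adding GRN163L lowered 29 genes and raised 10 among the 12570 tested (limma on all 8 arrays, Benjamini-Hochberg adjusted p below 0.05), which is 0.231% lower, 0.0796% higher and 0.31% in all. At an unadjusted p below 0.05, 1033 genes were lower and 663 higher. Among the called genes were ETS factors that follow ERK signalling, SOCS3, receptors and a granule protein of progenitors and mast cells, and HLA class II genes, but most called genes, all the rises among them, belonged to none of these groups. Just inside the threshold lay RYR2 (adjusted p = 0.0465) and SMPDL3B (adjusted p = 0.0477), and just outside it ALOX12, CD74, CYRIA and BMF (adjusted p = 0.0503 each, limma). A block for the experiment raised the count to 201 (1.6%), with 130 lower (1.03%) and 71 higher (0.565%), and all 39 called without the block were among them. Centring every array on one median gave 31 lower and 18 higher, so that 36.7% of called genes were higher in place of 25.6%. With the block and one median together, a setting added after seeing the data, 128 were lower and 147 higher, so that the majority direction turned. A limma fit on the 4 compared arrays alone called none, with 1356 genes at an unadjusted p below 0.05, and none with the block, with 3473 genes. Every array moved the count when it was left out. It became 15 lower and 3 higher without either control array, 13 and 3 without either GRN163L array, and 15 and 14 without the LY2784544 array of experiment 1. Without that of experiment 2 it was 38 and 5, and without the combination array of experiment 1 or 2 it was 15 and 4, or 37 and 8. In all 8 of these fits 13 genes stayed called: ETV1, ETV4, HLA-DRA, HTRA3, IFI30, IGFBP2, LINC03030, MRC2, PRG2, SLC37A2, SOCS3, UCA1 and VGLL3. RYR2, SMPDL3B and ZNF704 were called in none of them, and the other 23 called genes in 1 to 3.

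The PEA3 group of ETS transcription factors, ETV1, ETV4 and ETV5, whose expression follows ERK signalling, all fell. ETV4 was at 5.50 and 4.94 on the combination arrays, against 8.26 and 7.78 on the LY2784544 arrays, with 7.32 and 7.11 for GRN163L and 8.16 and 8.55 in control. Both combination values lay below all other arrays, and the log2 change of -2.80 (SE 0.25) is 6.96-fold lower (limma adjusted p = 0.00301). ETV1 was at 4.32 and 4.58 with the combination, against 6.92 and 6.61 with LY2784544, where the combination values were close to the filter level of 4.37 (log2 change -2.31, SE 0.19, adjusted p = 0.00301). ETV1 levels were 5.18 and 5.40 for GRN163L and 5.44 and 5.69 in control. ETV5 was at 6.98 and 7.27 with the combination, against 9.17 and 8.74 with LY2784544 (log2 change -1.83, SE 0.27, limma adjusted p = 0.0341). Of 25 tested genes of ERK feedback and the immediate early response, these 3 were called, all lower, against 0.231% of all genes tested. A lower mean was found for 23 of the 25, and 20 (80%) were lower in both experiments, against 38.7% of all genes. The median log2 change of the list was -0.54, against -0.02 over all genes tested. Members that did not pass included the immediate early gene IER2 (-0.95, adjusted p = 0.253), SPRED2 (-0.69, adjusted p = 0.312) and SPRY2 (-0.61, adjusted p = 0.336), the last 2 inhibitors of the RAS and ERK pathway, none of which limma called. Once the experiment was a block SPRED2 also passed (adjusted p = 0.0482).

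SOCS3, the feedback inhibitor that STAT proteins induce, fell further when GRN163L was added to the JAK2 inhibitor. Its level was 5.23 and 5.58 with the combination, against 7.35 and 7.10 with LY2784544, and it was 7.02 and 6.85 with GRN163L and 8.29 and 8.41 in control. Each treated group lay below control and the combination lay lowest, with no overlap between the combination and any other group. The log2 change from LY2784544 was -1.82 (SE 0.18), or 3.53-fold lower (limma adjusted p = 0.00531). SOCS3 was the 1 called gene of 21 tested JAK-STAT targets, where 0.231% of all genes tested were called lower. A lower mean was found for 19, and 18 (85.7%) were lower in both experiments, against 38.7% of all genes. The list's median log2 change was -0.24. PIM1, a survival kinase, was at 10.81 and 10.58, against 11.39 and 11.31 (-0.66, SE 0.16), ID1, an inhibitor of differentiation, changed by -0.71 (SE 0.23) and the cell cycle inhibitor CDKN1A by -0.79 (SE 0.27), and none of them passed (limma adjusted p = 0.136, 0.242 and 0.26). The transcript of JAK2 itself was at 10.89 on both combination arrays, against 10.46 and 10.52 with LY2784544 (log2 change 0.40, SE 0.23, adjusted p = 0.507). A kinase inhibitor acts on the protein, so this level does not check the treatment.

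Among 20 tested receptors and ligands that signal through JAK kinases, 1 was called lower, against 0.231% of all genes tested. It was IFNGR2, a subunit of the interferon gamma receptor. It was at 6.27 and 5.82 with the combination, against 7.36 and 7.35 with LY2784544 (log2 change -1.31, SE 0.18, limma adjusted p = 0.0283). IL7R, the interleukin 7 receptor, was at 4.82 and 4.93, against 7.14 and 6.36 (-1.88, SE 0.36, adjusted p = 0.084), and IL2RB, a subunit of the interleukin 2 and 15 receptors, at 4.36 and 4.81, against 5.69 and 5.70 (-1.11, SE 0.30, adjusted p = 0.163). IL6ST, the signalling subunit shared by the interleukin 6 family, was higher, at 9.54 and 9.33, against 8.67 and 8.51 (0.84, SE 0.21, adjusted p = 0.142). Each of these 3 missed the threshold but passed with the experiment as a block (limma adjusted p = 0.0438, 0.0433 and 0.0444). The list went both ways, with 11 members of lower and 9 of higher mean.

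KIT, the receptor of stem cell factor, and CD34, a surface sialomucin of blood progenitors, were among the largest falls. KIT was at 7.42 and 8.69 with the combination, against 11.12 and 10.58 with LY2784544, and at 9.88 and 10.47 with GRN163L and 10.29 and 10.28 in control. The combination arrays lay below all others, but the fall in experiment 1 (-3.70) was far larger than that in experiment 2 (-1.89). The mean log2 change was -2.79 (SE 0.39, limma adjusted p = 0.0284). CD34 was at 5.89 and 6.73 with the combination, against 8.64 and 8.79 with LY2784544 (log2 change -2.40, SE 0.30, adjusted p = 0.0251). Here the GRN163L arrays, at 5.75 and 6.43, were as low as the combination, and control was at 7.41 and 7.13. The RNA came from whole cultures, so that fewer cells with a transcript and less of it per cell cannot be told apart. KIT and CD34 were the 2 called genes of 24 tested progenitor genes, a list otherwise made of transcription factors. Of all genes tested 0.231% were called lower. None of the transcription factors was called: GATA2 changed by -0.35 (adjusted p = 0.37), CEBPB by -0.48 (adjusted p = 0.333) and MEIS1 by 0.60 (adjusted p = 0.317, limma). The list's median log2 change was -0.15, and 16 of the 24 (66.7%) were lower in both experiments, against 38.7% of all genes tested. In 16 of the 24 both combination arrays lay below both LY2784544 arrays, against 22.8% of all genes. In 5 both lay above, against 18.9%.

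Most mast cell and basophil genes that HEL cells express had lower levels with the combination. PRG2, the major basic protein of eosinophil and basophil granules, was at 6.81 and 7.12 with the combination, against 10.06 and 9.44 with LY2784544. It was at 9.41 and 9.63 with GRN163L and at 9.84 and 9.99 in control, so the combination stood apart from the other 6 arrays. The log2 change from LY2784544 was -2.79 (SE 0.23), or 6.89-fold lower (limma adjusted p = 0.00301). Of 17 genes listed 9 passed the filter on low values, and 2 were called (PRG2 and KIT), both lower, against 0.231% of all genes tested. In both experiments 8 of the 9 (88.9%) were lower, against 38.7% of all genes, with a median log2 change of -0.84. CPA3, the mast cell carboxypeptidase, was at 7.08 and 7.88, against 9.87 and 9.19 (-2.05, SE 0.37, adjusted p = 0.0775). HDC, which makes histamine, was at 10.17 and 9.93, against 11.08 and 10.71 (-0.84, SE 0.18, adjusted p = 0.105). Neither was called, and both passed with the block (limma adjusted p = 0.0426 and 0.0368). HPGDS, a prostaglandin D2 synthase, differed between the experiments, with -2.49 in experiment 1 and -0.82 in experiment 2 (limma adjusted p = 0.184). The median level over the 9 genes was 7.42 and 8.69 with the combination, against 10.17 and 10.27 with LY2784544. A median of 9 genes is the level of 1 gene, that of KIT with the combination but not with LY2784544. The distance between these medians is therefore not a change per gene, whose median was -0.91 and -0.78 in experiments 1 and 2. The part of this list in other results was not tested.

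HLA class II molecules present peptides to helper T cells, and their assembly needs the invariant chain CD74 and lysosomal enzymes. HLA-DRA, the alpha chain of HLA-DR, was at 5.77 and 6.23 with the combination, against 8.72 and 8.52 with LY2784544, and the GRN163L arrays were at 7.45 and 7.97 and the controls at 7.50 and 7.35. The gene was highest with LY2784544 and lowest with the combination, and its log2 change of -2.62 (SE 0.23) is 6.15-fold lower (limma adjusted p = 0.00301). Its other 2 probe sets gave -2.43 and -2.36 in experiment 1 and -2.13 and -2.07 in experiment 2. IFI30, a lysosomal thiol reductase that unfolds antigens for class II loading, was at 4.89 and 5.16, against 7.21 and 7.20 (-2.18, SE 0.18, adjusted p = 0.00301). HLA-DRB3, a beta chain gene with near-identical copies, so that the source of its signal is uncertain, was at 6.01 and 6.04, against 7.29 and 7.33 (-1.28, SE 0.17, adjusted p = 0.0267). CD74 was at 8.96 and 8.90, against 9.90 and 9.89 (-0.96, SE 0.15), and missed the threshold narrowly (limma adjusted p = 0.0503). Of 15 tested genes of a class II list written after the called genes had been seen, 3 were called lower (HLA-DRA, IFI30 and HLA-DRB3), against 0.231% of all genes tested. A lower mean was found for 13, against 6619 of all 12570 genes tested. The median log2 change was -0.28, and HLA-DPB1 (-1.22, adjusted p = 0.0775) and the protease gene CTSS (-0.89, adjusted p = 0.0965) did not pass (limma). With the block 6 of the 15 were called lower, against 1.03% of all genes.

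The promoters of this group were searched for CCAAT, the Y box bound by NF-Y at class II genes, on both strands of the 250 bases before the RefSeq start. It was present in 7 of 10 class II presentation genes with an entry (70%), against 33% of 27305 promoters of that length. CD74, shown as the invariant chain gene whose 2 arrays agreed closely within each group, holds 1 match (capitals), on chr5:150412911-150413160, minus strand, RefSeq, GRCh38.p14.
CD74: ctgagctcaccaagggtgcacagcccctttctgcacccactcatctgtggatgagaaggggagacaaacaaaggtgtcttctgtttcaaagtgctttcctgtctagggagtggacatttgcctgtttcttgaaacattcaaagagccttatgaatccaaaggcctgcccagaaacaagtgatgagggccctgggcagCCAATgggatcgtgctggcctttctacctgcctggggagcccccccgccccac
Of the called genes, 18 lower and 7 higher ones had an entry. SOCS3 and HLA-DRA had none, so neither promoter was searched. The STAT motif TTCNNNGAA, which reads the same on both strands, was in 1 of the 18 (5.56%, ST6GALNAC3) and in 6.78% of all promoters. CCAAT was in 4 of the 18 lower genes (22.2%) and 2 of the 7 higher ones (28.6%), so its share was not raised among the called genes with an entry. A match is a description of the letters, not a bound site.

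Several further genes fell as far without belonging to these groups. SLC37A2, a sugar phosphate transporter of the endoplasmic reticulum, had the largest fall, with 5.87 and 6.53 in the combination, against 9.40 and 8.76 with LY2784544, beside 6.33 and 6.56 for GRN163L and 6.73 and 6.57 for control. LY2784544 alone stood above the other 6 arrays, which lay close together, and the log2 change was -2.88 (SE 0.27), or 7.36-fold lower (limma adjusted p = 0.00362). HTRA3, a secreted serine protease, was at 5.18 and 4.93 with the combination, against 7.24 and 7.51 with LY2784544, and at 4.91 and 4.62 with GRN163L and 5.02 and 5.35 in control. UCA1, a long noncoding RNA, was at 4.35 and 4.36 with the combination, against 6.57 and 6.77 with LY2784544, and at 4.13 and 4.37 with GRN163L and 4.63 and 4.70 in control. HTRA3 and UCA1 thus were high with LY2784544 only, and in the other groups UCA1 lay around the filter level of 4.37. Their log2 changes were -2.32 (SE 0.20, adjusted p = 0.00301) and -2.31 (SE 0.16, adjusted p = 0.00291, limma).

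GSTP1, a glutathione S-transferase, showed another pattern. It was at 6.13 and 7.57 with the combination, against 9.62 and 9.57 with LY2784544, and at 8.22 and 8.01 with GRN163L and 9.26 and 9.47 in control. Both groups with GRN163L were below both without it, and the fall of -3.49 in experiment 1 exceeded that of -2.0 in experiment 2 (mean -2.75, SE 0.38, limma adjusted p = 0.0284). MRC2, an endocytic receptor for collagen, was likewise lowest with the combination and next lowest with GRN163L, at 5.18 and 4.97 with the combination, against 7.17 and 6.91 with LY2784544, and at 6.18 and 6.12 with GRN163L and 7.19 and 7.44 in control (log2 change -1.97, SE 0.17, adjusted p = 0.00301). IGFBP2, an insulin-like growth factor binding protein, was at 7.48 and 7.43, against 9.68 and 9.41 (-2.09, SE 0.23, limma adjusted p = 0.0087). FAM83A, of a family that binds casein kinase 1, was at 5.83 and 5.45, against 8.68 and 7.52 (-2.46, SE 0.38, limma adjusted p = 0.0457).

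The remaining called falls had log2 changes between -1.95 and -1.0. CDC42EP1, an effector of the GTPase CDC42, changed by -1.95, ADGRG6, an adhesion receptor, by -1.91, and CA8, a carbonic anhydrase relative, by -1.88. LBH, a transcription cofactor, changed by -1.73, JUP, the junction protein plakoglobin, by -1.71, SH2D2A, a T cell adaptor, by -1.67, and ANXA6, a calcium-dependent lipid-binding protein, by -1.54. The sialyltransferase gene ST6GALNAC3 changed by -1.52, LEF1, a transcription factor of WNT signalling, by -1.19, the calcium channel gene RYR2 by -1.09 and SMPDL3B, a phosphodiesterase at the membrane, by -1.0. LEF1 was at 7.66 and 7.67 with the combination, against 8.89 and 8.81 with LY2784544, and so was nearly equal in both experiments. A second probe set of ST6GALNAC3 gave smaller falls, -0.99 and -0.76 in experiments 1 and 2. A fall from LY2784544 need not be a fall below control. Of all 29 lower genes, 18 had LY2784544 above control in both experiments and 5 below it in both. The mean with the combination was 4.71 for CDC42EP1, 9.17 for JUP, 5.81 for LBH and 5.38 for RYR2. In control these means were 4.71, 9.11, 5.90 and 4.99. Other called falls did go below control. The mean with the combination was 6.19 for ANXA6 and 7.67 for LEF1, against 8.16 and 9.07 in control.

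The 10 called rises were smaller, from 1.15 to 1.80 on the log2 scale. For 8 of the 10, LY2784544 lay below control in both experiments. SEC11C, a catalytic subunit of the signal peptidase, was at 7.68 and 7.89 with the combination, against 5.92 and 6.04 with LY2784544, and at 6.56 and 7.42 with GRN163L and 6.29 and 6.23 in control (log2 change 1.80, SE 0.26, limma adjusted p = 0.0313). The septin gene SEPTIN10 was at 5.42 and 5.64, against 4.09 and 3.42, and at 6.28 and 6.18 with GRN163L and 6.11 and 6.25 in control (1.77, SE 0.22, adjusted p = 0.0251). LY2784544 was below the filter level of 4.37 for this gene, and the combination lay between it and the other groups. VGLL3, a cofactor of TEAD transcription factors, was at 7.28 and 7.46, against 5.56 and 5.76, and at 7.20 and 7.30 with GRN163L and 6.93 and 6.96 in control (1.71, SE 0.16, limma adjusted p = 0.00327). Here LY2784544 alone stood below the other 6 arrays.

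LINC03030, a long noncoding RNA, and B3GALNT1, which makes the globoside of the P blood group, were higher in both groups with GRN163L. LINC03030 was at 6.60 and 6.68 with the combination, against 4.85 and 5.15 with LY2784544, and at 6.26 and 6.35 with GRN163L and 5.29 and 5.03 in control (log2 change 1.64, SE 0.17, limma adjusted p = 0.00738). B3GALNT1 was at 7.62 and 7.69, against 6.36 and 5.98, and at 7.67 and 8.14 with GRN163L and 6.96 and 6.75 in control (1.49, SE 0.21, adjusted p = 0.0296). The other rises were those of RAB3C, a small GTPase of exocytosis (1.38), KIAA1143 (1.38), the beta tubulin gene TUBB4A (1.31), RPS20P27 (1.20) and the zinc finger gene ZNF704 (1.15). RPS20P27 is a pseudogene of RPS20, so its signal may come from the parent gene, which near-identical sequence does not allow the array to separate. A second probe set of TUBB4A gave smaller rises, 0.84 and 0.50, and one of KIAA1143 gave 1.34 and 1.19.

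**Figure D2:**
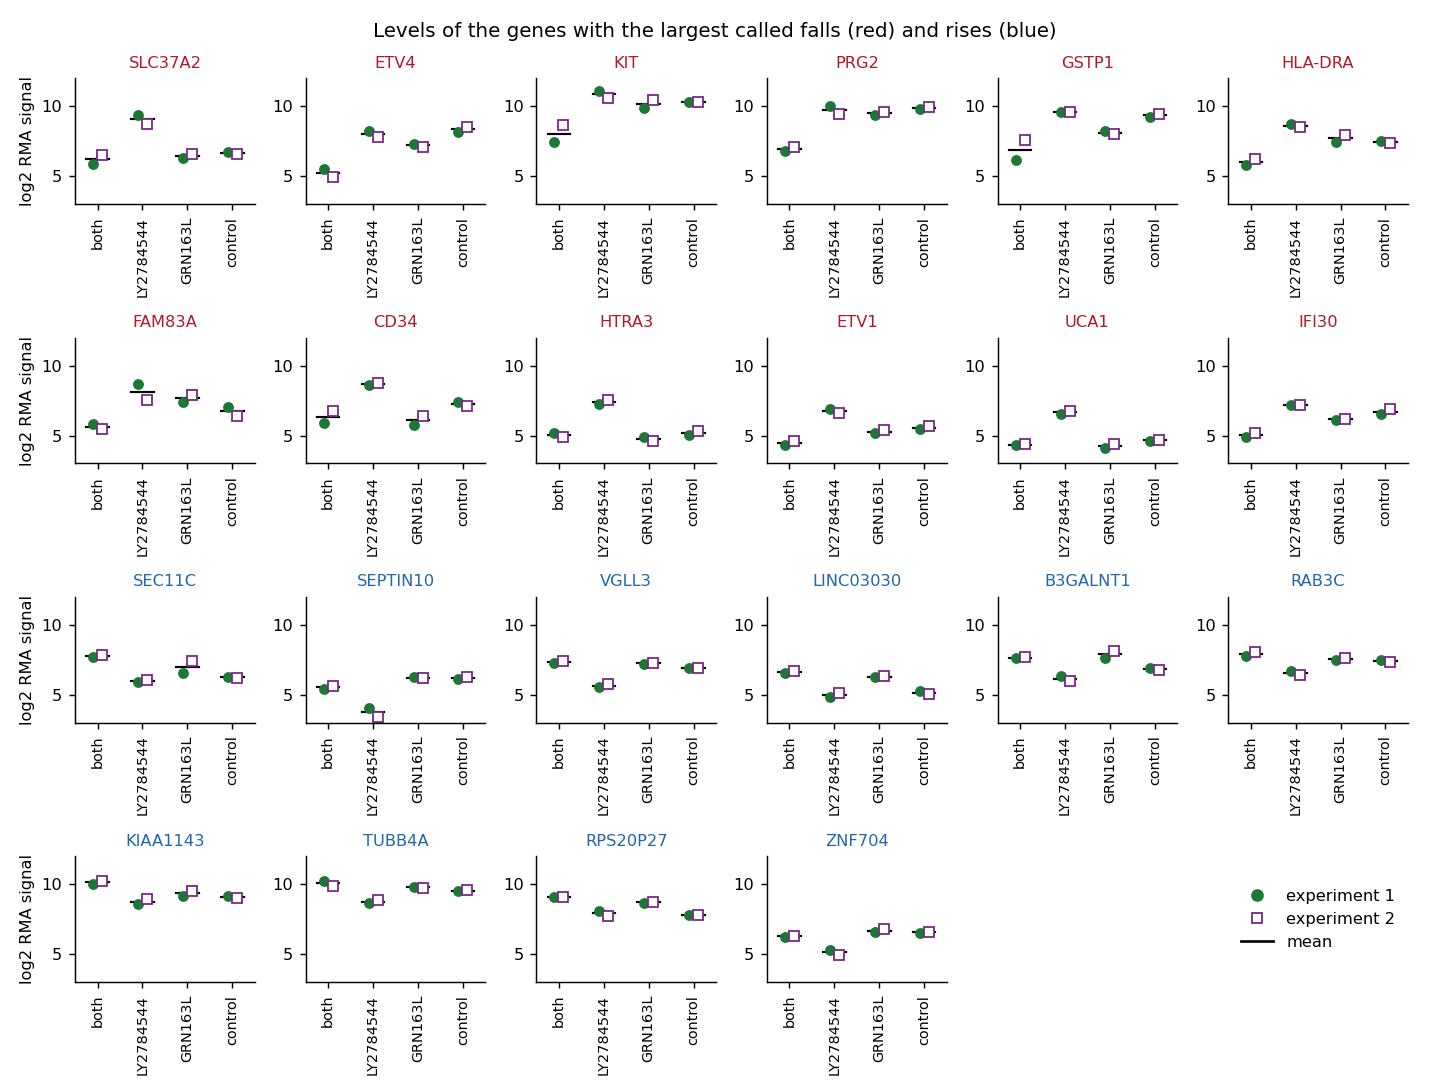
Log2 RMA signal (vertical axis) of the 12 genes with the largest called falls (red titles) and the 10 called rises (blue titles), with the combination (labelled both) left of LY2784544, GRN163L and control; circles are experiment 1, squares experiment 2 and bars the mean of both. SLC37A2, HTRA3 and UCA1 are high with LY2784544 only, whereas ETV4, PRG2 and IFI30 are lowest with the combination.

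Replication-dependent histone genes, which are transcribed in S phase to package new DNA, had lower means across the family. All 42 that were tested had a lower mean with the combination, 41 (97.6%) were lower in both experiments, and 33 had both combination arrays below both LY2784544 arrays, against 22.8% of all genes tested. The median log2 change was -0.61, with -0.78 in experiment 1 and -0.53 in experiment 2, and -0.54 after centring the arrays on one median. No histone gene was called by limma, where 26 of the 42 were lower at an unadjusted p below 0.05, against 1033 of all 12570 genes tested. Once the experiment was a block 7 of the 42 were called lower, against 1.03% of all genes. H3C11 was at 9.37 and 10.55 with the combination, against 11.87 and 11.95 with LY2784544 (-1.95, SE 0.33, adjusted p = 0.0639, and 0.0346 with the block). H2BC7 was at 7.85 and 8.65, against 9.67 and 9.88 (-1.52, SE 0.26, adjusted p = 0.0662), and H2BC3 at 6.86 and 7.87, against 8.66 and 9.14 (-1.53, SE 0.33, adjusted p = 0.102, limma). Histone genes have near-identical copies, and probe sets may share signal between them, so that the members are not independent. The same 42 genes were also all lower with GRN163L than with control, by a median of -0.61. Their median level was 6.91 and 7.64 with the combination, against 8.04 and 8.14 with LY2784544, and 7.70 and 7.61 with GRN163L, against 8.16 and 8.25 in control.

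The promoters of H2BC7 and H2BC3 are shown since both hold the octamer ATTTGCAT (capitals), the element of H2B genes that the transcription factor POU2F1 binds. On both strands, it was in 16 of 20 H2A and H2B promoters of tested genes (80%), against 1.66% of 27305 promoters. The stretches are the 250 bases before the RefSeq start in GRCh38.p14, at chr6:26199266-26199515 on the plus strand for H2BC7 and at chr6:26043714-26043963 on the minus strand for H2BC3.
H2BC7: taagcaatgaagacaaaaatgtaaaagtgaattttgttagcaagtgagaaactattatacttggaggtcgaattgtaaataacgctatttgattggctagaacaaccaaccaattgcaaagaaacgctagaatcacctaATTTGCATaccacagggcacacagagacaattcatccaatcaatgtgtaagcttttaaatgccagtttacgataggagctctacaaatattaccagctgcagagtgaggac
H2BC3: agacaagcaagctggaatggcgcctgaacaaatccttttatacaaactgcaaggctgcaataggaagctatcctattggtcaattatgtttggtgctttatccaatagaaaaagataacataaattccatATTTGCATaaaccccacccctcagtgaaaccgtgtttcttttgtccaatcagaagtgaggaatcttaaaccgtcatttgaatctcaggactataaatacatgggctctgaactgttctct
The octamer lies at 111 bases before the start in H2BC7 and at 120 in H2BC3, counted to its first base. CCAAT was in 33 of 37 histone promoters with an entry (89.2%).

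DNA replication genes leaned the same way as the histones, while genes of mitosis did not. Of 38 replication genes tested, 30 had a lower mean, against 6619 of all 12570 genes, and the median log2 change was -0.29. None was called by limma, and 6 were lower at an unadjusted p below 0.05, against 1033 of all 12570 genes. MCM7, a subunit of the replicative helicase, passed with the block alone. It was at 9.35 and 10.00 with the combination, against 10.49 and 10.87 with LY2784544 (-1.0, SE 0.25, limma adjusted p = 0.139, and 0.0289 with the block). MCM5, of the same helicase, changed by -0.71 (adjusted p = 0.192). Over 28 tested genes of G2 and mitosis the median was 0.02, with 15 of higher and 13 of lower mean, and 1 gene, CDC20 (-0.69, limma adjusted p = 0.246), had an unadjusted p below 0.05.

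Telomerase genes were examined for the target of GRN163L. TERC was at 7.95 and 8.43 with the combination, against 9.78 and 9.36 with LY2784544, and at 8.94 and 8.57 with GRN163L and 9.58 and 9.26 in control. The combination arrays were the lowest of the 8, yet the log2 change of -1.38 (SE 0.24) missed the threshold (limma adjusted p = 0.0681) and passed with the block (adjusted p = 0.035). TERT, the catalytic subunit, was at 5.07 and 4.90, against 4.65 and 5.06, near the filter level (0.13, SE 0.21, adjusted p = 0.845). RUVBL2 and RUVBL1, ATPases needed to assemble telomerase, were at -0.89 and -0.53, neither of them called (limma adjusted p = 0.228 and 0.275). Over 14 tested genes of telomerase and TERC processing the median log2 change was -0.12. Among 9 shelterin and telomere end genes it was -0.18, with 6 (66.7%) lower in both experiments, against 38.7% of all genes tested. None of the 9 was called by limma and 1 was lower at an unadjusted p below 0.05, against 1033 of all 12570 genes. It was the shelterin subunit gene ACD (-0.54, limma adjusted p = 0.219).

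Genes of the integrated stress response, which ATF4 induces when translation is held back, mostly had lower means with the combination than with LY2784544. Of 25 tested, 20 had a lower mean, against 6619 of all 12570 genes, and 19 (76%) were lower in both experiments, against 38.7%. Their median log2 change was -0.41. None was called by limma and none passed with the block. An unadjusted p below 0.05 was found for 8, all of them lower, against 1033 lower of all 12570 genes. DDIT4, an inhibitor of mTORC1, was at 8.64 and 8.74 with the combination, against 9.43 and 9.49 with LY2784544, and at 9.57 and 9.45 with GRN163L and 8.96 and 8.17 in control (-0.77, SE 0.24, adjusted p = 0.225). TRIB3, a pseudokinase, changed by -0.86 (adjusted p = 0.142), CHAC1, which breaks down glutathione, by -0.64 (adjusted p = 0.192), and ATF3, a stress-induced factor, by -0.69 (adjusted p = 0.212). GDF15, a secreted stress cytokine, was at -2.15 in experiment 1 and -0.52 in experiment 2. Of 17 genes of translation and tRNA synthetases 14 had a lower mean, with a median of -0.13.

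Cholesterol synthesis and megakaryocyte genes leaned upward. Of 18 cholesterol genes 15 had a higher mean and 13 (72.2%) were higher in both experiments, against 33.1% of all genes tested, with a median of 0.24, made up of 0.35 and 0.07 in experiments 1 and 2. None was called by limma and 2 were higher at an unadjusted p below 0.05, against 663 of all 12570 genes. IDI1, an isomerase of the pathway, was at 10.55 and 10.93, against 9.48 and 9.95 (1.02, SE 0.22, adjusted p = 0.104, and 0.0236 with the block). Of 25 megakaryocyte and platelet genes 18 had a higher mean, against 5864 of all 12570, with a median of 0.18. At an unadjusted p below 0.05 6 were higher, again with none called by limma. ITGA2, a collagen receptor subunit, was at 8.52 and 8.55, against 7.81 and 7.77 (0.74, SE 0.15, adjusted p = 0.0966), and TREML1, a receptor of platelet granules, at 9.23 and 10.54, against 7.88 and 9.20 (1.34, SE 0.51, adjusted p = 0.301). The 2 changes of TREML1 were near equal, 1.35 and 1.34, although its levels differed between the experiments, and both genes passed with the block (limma adjusted p = 0.047 and 0.0368). PF4 and PPBP, platelet chemokines, were at 0.81 and 0.61 (limma adjusted p = 0.247 and 0.297).

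Further lists covered hypoxia, cell death, the erythroid lineage and antiviral responses. The 28 hypoxia and glycolysis genes had a median of -0.17, with 19 of lower and 9 of higher mean. Foremost of the falls were the glycolytic enzyme genes ENO2 (-0.96, limma adjusted p = 0.0942) and HK2 (-0.96, adjusted p = 0.17). BNIP3 was higher (0.83, SE 0.39, limma adjusted p = 0.399). The 17 genes of the BCL2 family had a median of -0.21, with 4 lower at an unadjusted p below 0.05, against 1033 of all 12570 genes. BMF, which promotes cell death, was at 4.98 and 4.84, against 6.29 and 5.88 (-1.18, SE 0.19, limma adjusted p = 0.0503), and its combination values were level with 4.75 and 4.78 for GRN163L and 4.70 and 4.98 in control. With the block for the experiment BMF passed (adjusted p = 0.0289), as did BAK1, another promoter of cell death (-0.85, limma adjusted p = 0.212 without the block and 0.0494 with it). The 19 erythroid genes had a median of -0.14, with none called by limma and none at an unadjusted p below 0.05. HBZ, an embryonic globin gene, was at 5.20 and 6.25, against 5.69 and 8.93, so that its change of -1.58 came mostly from experiment 2. The 24 interferon-stimulated genes had a median of 0.02, and the 13 sensors of foreign nucleic acid, which an oligonucleotide might engage, one of 0.03. Limma called none in either list, while 3 lower and 3 higher genes of the first and 2 higher genes of the second had an unadjusted p below 0.05. Of all 12570 genes, 1033 were lower and 663 higher at that level. TLR3, a receptor of double-stranded RNA, had the smallest p of these sensors (0.91, SE 0.24, limma adjusted p = 0.158).

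Lists of ribosomal proteins, small nucleolar RNAs and olfactory receptors were read for comparison with those above. The 64 ribosomal protein genes had a median of -0.17 with 53 of lower mean. In both experiments 75% were lower, close to the 76% of the integrated stress response list and against 38.7% of all genes. The 142 small nucleolar RNAs had a median of -0.18 with 100 lower, beside -0.02 over all genes. At an unadjusted p below 0.05 31 of them were lower, against 1033 of all 12570 genes. With the block 4 were called lower, against 1.03% of all genes. Of 356 olfactory receptor genes, most of them silent in blood cells, 25 passed the filter, with a median of 0.19. After centring the arrays on one median these medians were -0.10, -0.11 and 0.26, against 0.05 over all genes tested. Their part in the other results was not tested.

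**Figure D3:**
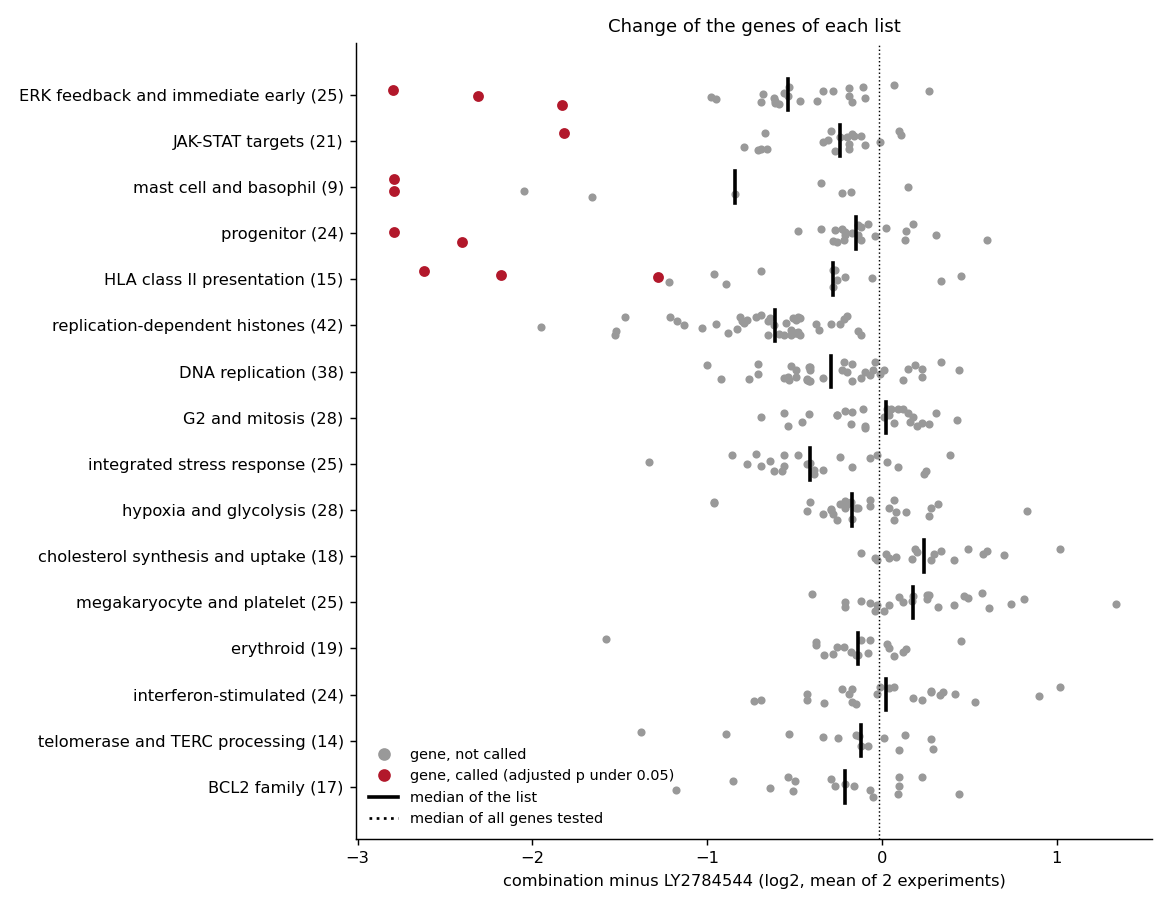
Log2 change (combination minus LY2784544, mean of both experiments, horizontal axis) of each tested gene in 16 lists, whose sizes stand in brackets; red points are called genes, thick bars list medians and the dotted line the median of all genes. All 42 histone genes lie below 0, and among these lists the called genes sit in those of ERK feedback, JAK-STAT targets, mast cells, progenitors and HLA class II presentation.

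GRN163L was also given without LY2784544, and the difference between the effects in the 2 settings was tested as an interaction. No gene passed (limma, smallest adjusted p = 0.12), with 464 genes at an unadjusted p below 0.05, and none passed with the block (smallest adjusted p = 0.0598, 742 genes unadjusted). Without the LY2784544 array of experiment 2, 8 genes passed, and none did when another array was left out. The comparison of GRN163L with control, on arrays that the main comparison does not use, called no gene either (smallest adjusted p = 0.201, 595 genes unadjusted). Across the 12570 genes the mean changes in the 2 settings correlated with r = 0.46, and with r = 0.28 and 0.27 when each setting was taken from the other experiment. Genes are not independent replicates, and the experiments share handling.

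All 39 called genes had a smaller change without LY2784544 than with it, but they had been picked for their change with it. The 29 lower genes had a median log2 change of -1.95 with LY2784544 and -0.41 without it. Of these 29, 22 were also lower in mean without LY2784544, against 6144 of all 12570 genes, and 20 were lower in both experiments. The 10 higher genes had a median of 1.43 with LY2784544 and 0.28 without it. All 10 were higher in mean without it, against 6313 of all 12570 genes, and 7 of the 10 in both experiments. The smallest interaction p-values among negative estimates belonged to HLA-DRA (-2.90, SE 0.32) and UCA1 (-1.90, SE 0.23), each with a limma adjusted p of 0.12. HLA-DRA changed by 0.28 without LY2784544, while UCA1 changed by -0.41. Among positive estimates they belonged to VGLL3 (1.41, SE 0.22, adjusted p = 0.226) and NCAM1, a neural cell adhesion molecule (1.52, SE 0.25, adjusted p = 0.233). NCAM1 was at 4.94 and 5.33 with the combination, against 4.80 and 4.62 with LY2784544, and at 5.11 and 5.06 with GRN163L, against 6.20 and 6.17 in control. SOCS3 had similar changes in both settings, -1.82 with LY2784544 and -1.42 without it (interaction -0.41, SE 0.26, limma adjusted p = 0.999).

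**Figure D4:**
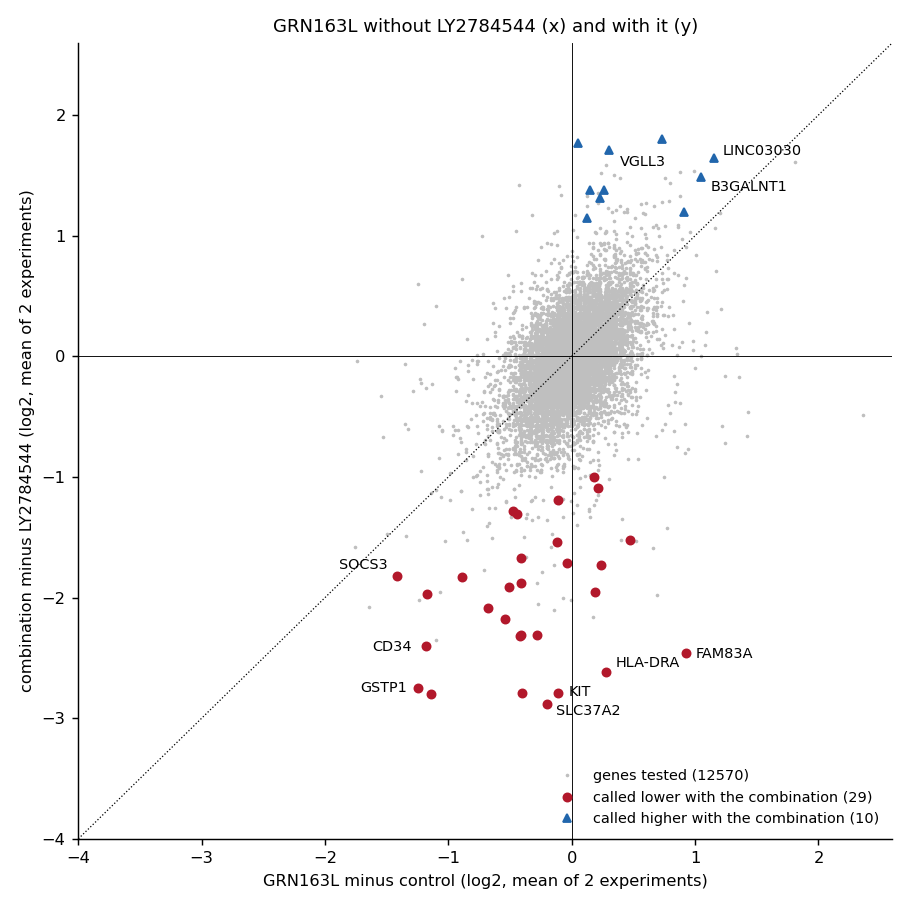
Log2 change on adding GRN163L with LY2784544 (vertical axis) and without it (GRN163L minus control, horizontal axis), means of both experiments, 1 point per gene tested; red and blue mark the 29 lower and 10 higher called genes. SOCS3 lies near the dotted line of equal change, while FAM83A and HLA-DRA lie below 0 on the vertical axis and above 0 on the horizontal axis.

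The list medians had one sign in both settings for some lists and not for others, as the plot of list medians shows. The histone genes had medians of -0.78 and -0.53 with LY2784544 and of -0.47 and -0.75 without it, in experiments 1 and 2. ERK feedback genes had -0.49 and -0.65 with it and -0.36 and -0.71 without it. The integrated stress response genes differed in direction, with -0.39 and -0.42 in the presence of LY2784544 and 0.35 and 0.57 in its absence. In its absence 23 of 25 had a higher mean, against 6313 of all 12570 genes. Mast cell and basophil genes had -0.91 and -0.78 with LY2784544, against -0.18 and 0.05 without it. Megakaryocyte and platelet genes had 0.24 and 0.17, against -0.05 and -0.08. No member of these lists passed the interaction test, and the differences between list medians were not tested.

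**Figure D5:**
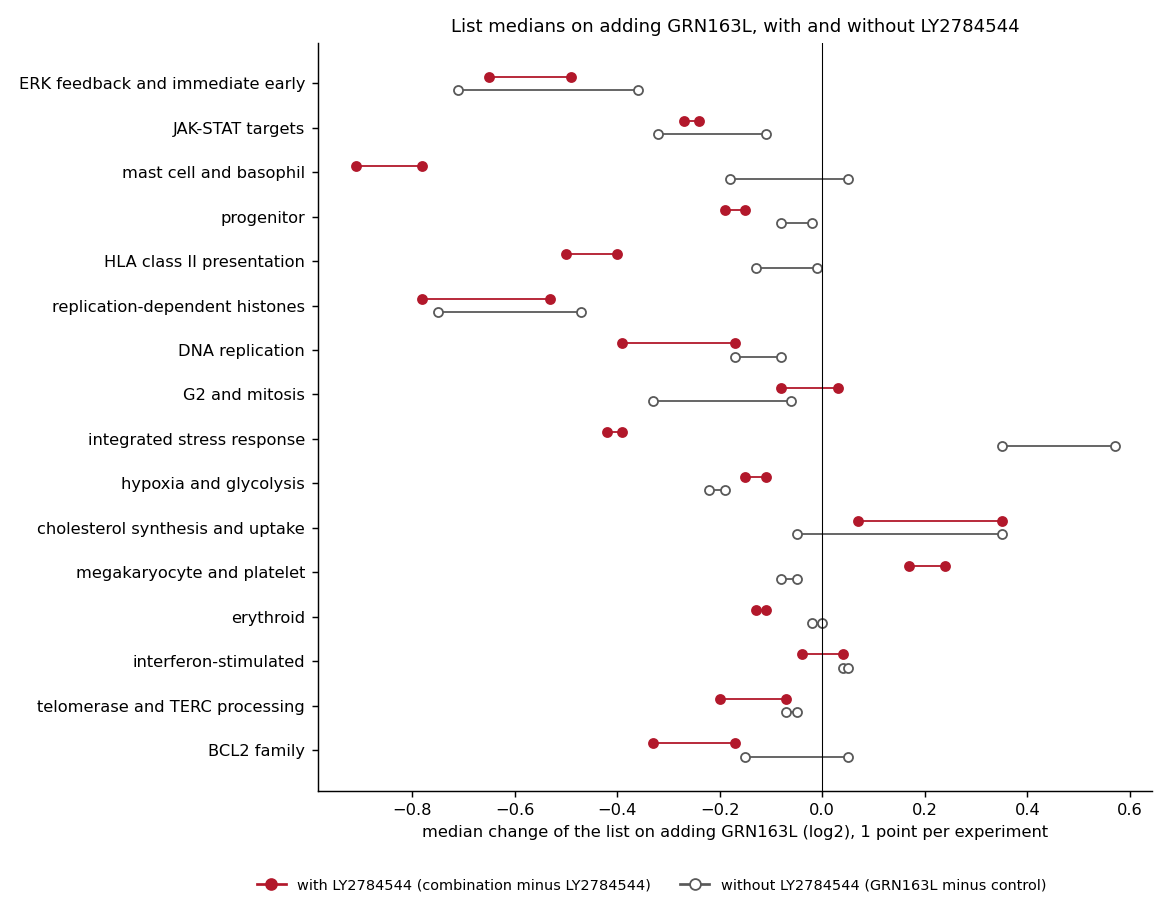
Median log2 change of each list on adding GRN163L, 1 point per experiment, with LY2784544 (red, combination minus LY2784544) and without it (open, GRN163L minus control). The histone and ERK feedback medians lie below 0 in both settings, and the integrated stress response medians lie below 0 with LY2784544 and above 0 without it.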

How the data were processed

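RNA of HEL cells was measured on 8 Affymetrix arrays, and the labels' protocols state that 150 ng per sample was turned into biotinylated sense-strand DNA. Deposited were log2 signals for each probe set, which the authors made with RMA in Affymetrix Expression Console, per the submitters' processing notes. Program version, annotation build and whether 1 run held all arrays are not given in the sources that were used, and the log base was taken from RMA and the range of values. RMA forces arrays to nearly 1 distribution and compresses changes of dim genes. Array medians were 5.07 to 5.25, and at most 1.9% of values were identical on 2 arrays.

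Genes were named with GEO's platform annotation, which can be old (19181 probe sets with 1 gene, 2055 with several, 12061 unnamed). The NCBI numbers of 19143 matched the RefSeq table, and no symbol needed updating. The probe set of highest mean stood for its gene, and genes whose mean was below the 30th percentile (4.37) were left out, which removed 5388 genes and kept 12570. limma 3.58.1 in R 4.3.3 fitted 4 group means to all 8 arrays (4 residual degrees of freedom, 4.65 from the prior), with Benjamini-Hochberg adjustment at 0.05 over all genes, and the script was tested on simulated data. The labels name the experiment of each array, which pairs the arrays; deviations from group means correlated with r = 0.67 between the combination and LY2784544, whereas r was lower in the other 5 pairs of groups: 0.39 and 0.26 where GRN163L was paired with the combination or LY2784544, and 0.10 to 0.19 in pairs with control. The block takes 1 experiment effect for all 4 groups. Promoters came from RefSeq (GRCh38.p14), with an entry for 25 of 39 called genes.

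Named genes were the 12 called genes of largest change in each direction, up to 4 genes of smallest p per list described, the 2 of smallest interaction p in each direction, and JAK2, TERT, TERC and SOCS3. The other called genes, those at the threshold and SPRED2, SPRY2, GATA2, HPGDS, HLA-DPB1, CTSS, H2BC3, GDF15 and TREML1 were named after their values were seen. Members and lists were chosen with earlier results of these data known. Alternatives were the experiment as a block, filters, normalization, variance prior, the 4 compared arrays alone, the treatment of several probe sets and leaving out each array.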

Additional observations from a re-analysis of the deposited data

Results flagged for a closer look

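In 6 called genes the change on adding GRN163L was downward in both experiments with LY2784544 and upward in both without it. The difference between the settings on the log2 scale (the interaction) was -3.39 for FAM83A, -2.13 for CDC42EP1, -1.99 for ST6GALNAC3, -1.97 for LBH, -1.30 for RYR2 and -1.18 for SMPDL3B. The difference itself passed the test for none of the 6: limma adjusted p was 0.226 for FAM83A, 0.233 for ST6GALNAC3, 0.263 for CDC42EP1, 0.423 for RYR2, 0.446 for SMPDL3B and 0.472 for LBH, and with the experiment as a block it lay between 0.104 and 0.286. FAM83A was at 5.83 and 5.45 with the combination, against 8.68 and 7.52 with LY2784544, and at 7.40 and 7.93 with GRN163L, against 7.04 and 6.43 in control. The changes without LY2784544 were small in the other 5, from 0.18 for SMPDL3B to 0.47 for ST6GALNAC3. Some were barely upward in 1 experiment, by 0.01 for RYR2, 0.03 for SMPDL3B and 0.09 for LBH in experiment 1, and 0.05 for CDC42EP1 in experiment 2. For these genes the direction without LY2784544 is uncertain.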

How the results depend on the processing

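The 39 called genes kept their direction in all 20 alternatives, wherever they were tested. In many of these the direction could not change, because the estimate stays the same. Such are the block, the filters, the variance prior, the 4 compared arrays alone and leaving out a control or GRN163L array. The counts moved. The replicate block gave 71 higher and 130 lower genes, and with the block and one median together, an alternative added after seeing the data, it was 147 and 128. One median alone gave 18 higher. The 4 compared arrays alone gave 0 and 0, with or without the replicate block, where the adjusted p of the 39 genes reached 0.114 and 0.29; that fit has fewer arrays to estimate the spread. Leaving out 1 array gave 3 to 14 higher and 13 to 38 lower genes. For the interaction, 0 genes passed, also with the replicate block, except 6 when every probe set was tested separately and 0 to 8 when 1 array was left out; the cause was not tested. No filter, a filter at the 50th percentile, a mean-variance trend, robust moderation, quantile normalization and both other treatments of several probe sets kept the counts of called genes within 1.5 times, at 8 to 15 higher and 23 to 36 lower. With 2 arrays per group, a change that differs between the experiments, as for KIT and GSTP1, is known only roughly, and signals near the filter level of 4.37 understate a fall.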
